A study of Mus musculus with 5 samples.

Results

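The 7 Kruppel-like factor genes Klf1, Klf2, Klf3, Klf4, Klf6, Klf10 and Klf13 were followed by symbol through single-cell RNA counts of 4 sorted progenitor populations of mouse bone marrow. They are 7 of 27998 genes in the matrices and 7 of 17 with a Klf symbol. All cells came from wild-type C57BL/6 mice described as healthy controls, and neither the age nor the number of animals is stated in the sources used here. LSK cells were negative for lineage antigens and positive for SCA1 and KIT, and this gate holds the stem cells. In the other gates, cells lacked lineage antigens and SCA1 and carried KIT. CD34 and CD16/32, the Fc gamma receptors, divided them. Cells with CD34 alone were taken as common myeloid progenitors (CMP), cells with both antigens as granulocyte/monocyte progenitors (GMP), and cells with neither as megakaryocyte/erythroid progenitors (MEP). The labels list 5 samples, but both CMP samples held the same matrix, so each gate was 1 library. With 1 library per gate no test was possible, and differences have no replicate check. Intervals are given in square brackets at 95% and cover counting error only.

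Kruppel-like factors are transcription factors with C2H2 zinc fingers at the C terminus that bind CACCC and other GC-rich elements, and their N-terminal parts recruit activators or repressors. KLF1 is the activator of red cell genes such as beta-globin, and KLF3 is a repressor that binds the CtBP corepressors and that KLF1 is known to activate in red cell precursors. KLF2 holds T cells quiescent, KLF4 is known for monocyte differentiation and for reprogramming to pluripotency, and KLF2, KLF4, KLF6 and KLF10 are all known to respond quickly to extracellular signals. KLF13 is known for its part in cytokine gene expression in T cells.

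In GENCODE M21 (GRCm38) all 7 are protein-coding genes. Klf1 lies at chr8:84901928-84905291 and Klf2 at chr8:72319033-72321656, both on the plus strand. Klf3 is at chr5:64803388-64832901 and Klf6 at chr13:5861482-5870394, also on the plus strand. Klf4 at chr4:55527143-55532466, Klf10 at chr15:38291463-38300706 and Klf13 at chr7:63886351-63938915 are on the minus strand. Promoters of 6 of the 7 genes were matched in the RefSeq table (GRCm38.p6), and the 250 bases before each RefSeq start were searched on both strands. The letters searched for GATA factors were TGATAA and AGATAA as well as TGATAG and AGATAG. The others were CACCC for Kruppel-like factors and CCAAT for CCAAT-binding factors, with TGANTCA for AP-1, TGACGTCA for CREB and CTATTTTTA for MEF2. The promoters of Klf1 and Klf3, which were higher in MEP than in any other library beyond counting error, and of Klf2 and Klf6, which were highest in LSK, are shown for comparison, 5′ to 3′ on the gene's strand. Each run stops before the GENCODE start of its gene, and capitals mark motif matches on either strand.
Klf1, chr8:84901732-84901927: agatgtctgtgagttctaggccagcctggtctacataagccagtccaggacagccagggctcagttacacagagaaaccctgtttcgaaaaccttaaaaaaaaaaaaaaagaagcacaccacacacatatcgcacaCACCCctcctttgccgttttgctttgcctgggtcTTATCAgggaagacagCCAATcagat
Klf3, chr5:64803271-64803387: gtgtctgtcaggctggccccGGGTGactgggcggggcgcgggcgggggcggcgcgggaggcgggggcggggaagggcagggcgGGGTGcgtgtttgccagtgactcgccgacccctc
Klf2, chr8:72318812-72319032: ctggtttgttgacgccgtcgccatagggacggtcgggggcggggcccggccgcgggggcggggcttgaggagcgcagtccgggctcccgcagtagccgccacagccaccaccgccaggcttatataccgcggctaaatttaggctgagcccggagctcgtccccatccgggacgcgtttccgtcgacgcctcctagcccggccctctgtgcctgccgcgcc
Klf6, chr13:5861239-5861481: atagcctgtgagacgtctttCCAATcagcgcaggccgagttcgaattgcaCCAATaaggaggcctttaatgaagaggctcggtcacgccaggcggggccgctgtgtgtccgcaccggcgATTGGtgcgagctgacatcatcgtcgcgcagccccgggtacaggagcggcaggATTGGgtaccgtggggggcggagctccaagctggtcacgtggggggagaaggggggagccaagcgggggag

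The Klf1 run carried CACCC, then TTATCA, which is TGATAA read on the minus strand, and then CCAAT, within a stretch from 114 to 60 bases before the RefSeq start. It was the promoter with a match to the GATA letters among the 6, and TGATAA occurred in 8.16% of 27025 promoters of the same length (any of the 4 GATA words in 27.1%). The Klf3 window held 5 CACCC matches, of which 2 lie in the run shown, and 0.625% of promoters held as many or more, while 51.3% held at least 1. The Klf6 run held 4 CCAAT matches, a motif present in 34.5% of promoters. The Klf2 run held no match, and the only match of its window, CACCC, lay in the part not shown. Klf13 held 1 CACCC and 2 CCAAT matches, and Klf4 held none of the motifs. The Klf1 window had 49.2% G and C, against 64.8 to 78.4% in the others. A match describes letters and not a bound site.

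The libraries held 10870 LSK, 3713 CMP, 8027 GMP and 6284 MEP cells after filtering, with 26919088 to 80273121 UMIs per library and a median of 5991.5, 6904, 9100 and 12578 UMIs per cell. Levels are UMIs of the gene per 1000000 UMIs of the library (CPM), and they are compared between libraries and not between genes. The gate antigens followed the sort: Ly6a (SCA1) had 78.2 CPM in LSK and 0.112 to 1.49 elsewhere. Cd34 went from 399 CPM in LSK through 234 and 118 in CMP and GMP to 0.498 in MEP. Fcgr3 (CD16) had 208 CPM in GMP and 0.149 to 13.9 in the others. Between 36 and 130 cell barcodes were shared by any pair of libraries, 0.907 to 1.62% of the smaller library, and these cells were kept. The CMP matrix held 3738 barcodes where the design text states 12185 cells, and the other CMP cells were not analysed here.

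Klf1 had most of its UMIs in MEP. Its level was 422 CPM [417, 426] in MEP, 12.3 [11.0, 13.7] in CMP, 3.95 [3.51, 4.43] in LSK and 1.12 [0.889, 1.39] in GMP, where 82 UMIs were counted. No intervals overlapped, and the level in MEP was 377 times that in GMP and 34.4 times that in CMP. Klf3 was also highest in MEP, at 75.0 CPM [73.1, 77.0], followed by LSK at 30.7 [29.5, 32.0]. GMP had 9.71 [9.01, 10.4] and CMP 9.36 [8.24, 10.6] CPM of Klf3, and these neighbours could not be told apart at this depth. The order thus differed from that of Klf1 in the position of LSK, which had 3.28 times as much Klf3 as CMP but less Klf1. Klf13 had the smallest span, 2.31-fold, from 57.7 CPM [56.1, 59.4] in MEP through 54.4 [52.7, 56.1] in LSK and 51.7 [49.0, 54.5] in CMP to 24.9 [23.8, 26.1] in GMP. The intervals of Klf13 in MEP and LSK met, those of LSK and CMP overlapped, and GMP stood below the others.

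Klf2 and Klf6 shared one order, LSK over CMP over GMP over MEP. In that order Klf2 had 330 [326, 334], 159 [154, 163], 41.8 [40.3, 43.3] and 4.53 [4.08, 5.03] CPM, a span of 72.7-fold. Klf6 had 445 [441, 450], 212 [206, 217], 49.3 [47.7, 51.0] and 21.6 [20.6, 22.7] CPM, a span of 20.6-fold. No intervals overlapped in either gene. Klf10, a TGF-beta-inducible early gene, was likewise highest in LSK, at 31.7 CPM [30.5, 33.0], with CMP next at 24.2 [22.4, 26.2]. It had 9.06 [8.41, 9.74] in MEP and 8.16 [7.52, 8.85] in GMP, whose intervals overlapped. Klf4 was highest in LSK at 52.7 CPM [51.0, 54.3] but, unlike Klf2 and Klf6, stood higher in GMP (29.96 [28.7, 31.2]) than in CMP (21.3 [19.6, 23.1]). In MEP it was at 1.11 [0.890, 1.36], so the highest and lowest libraries differed 47.5-fold.

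**Figure D1:**
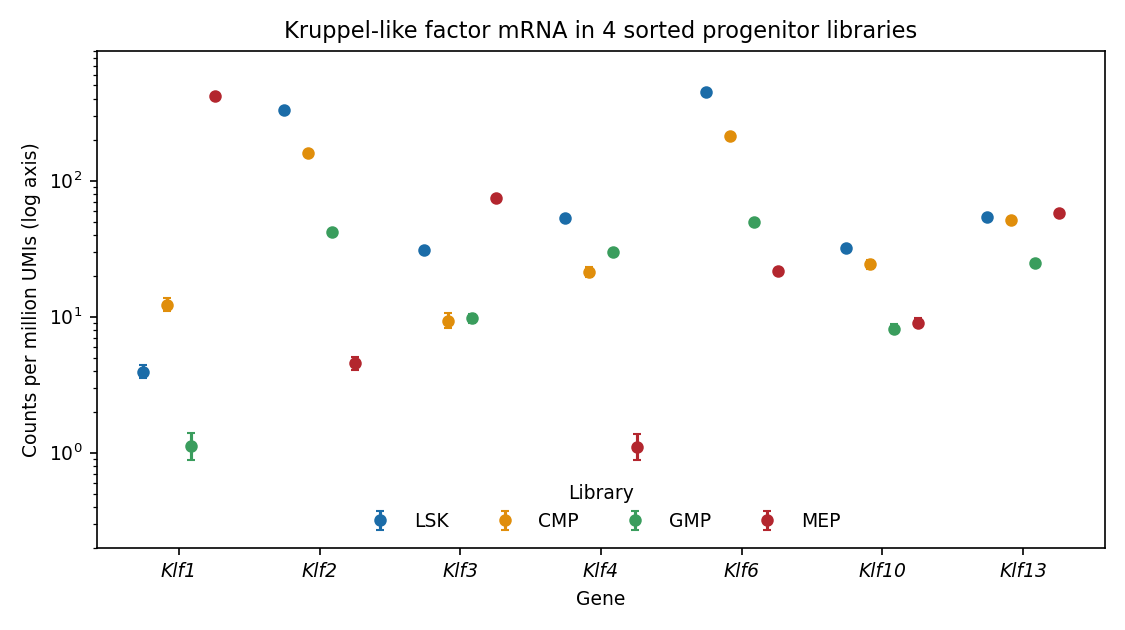
Level of each of the 7 genes in the LSK, CMP, GMP and MEP libraries, in CPM on a log axis; points are single libraries and bars are exact 95% Poisson intervals, often smaller than the point. Klf1 (422 CPM) and Klf3 (75.0 CPM) are highest in MEP, and Klf2, Klf4, Klf6 and Klf10 are highest in LSK.

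A gene was counted as higher in one library where that library had at least 50 CPM and the ratio was 2 or more. Between LSK and CMP, Klf2 (log2 ratio 1.06 [1.01, 1.10]), Klf4 (1.31 [1.18, 1.44]) and Klf6 (1.07 [1.03, 1.11]) were higher in LSK by this rule, 3 of the 4 members with 50 CPM in either library, where 6.12% of 3056 genes were. None was higher in CMP, where 2.72% of genes were, although Klf1, below 50 CPM in both, had a log2 ratio of -1.63 [-1.86, -1.40]. Klf4 reached 50 CPM only in LSK, so it could be counted only there. The 3 calls sat close to the 2-fold line and depended on the scaling. TMM and median-of-ratios factors shifted every gene by -0.31 and -0.38 in this contrast, and then no member passed, with Klf2 at 0.74 and 0.68, Klf4 at 0.99 and 0.93 and Klf6 at 0.76 and 0.70. Klf13 had a log2 ratio of 0.07 [-0.01, 0.16] and turned to -0.24 and -0.30 under those factors. Of all genes called in this contrast 69.3% were higher in LSK, and 25.3% and 20.3% under the 2 other scalings. The median log2 ratio was 1.06 over the 7 members, also 1.06 over the 4 with 50 CPM, and -0.05 over all genes with 50 CPM.

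Between CMP and GMP, Klf2 (log2 ratio 1.92 [1.86, 1.99]), Klf6 (2.10 [2.04, 2.16]) and Klf13 (1.05 [0.95, 1.15]) were higher in CMP, all 3 members with 50 CPM in either library, where 4.03% of 2804 genes were. No member was higher in GMP (2.92% of genes). With library totals those 3 reached 50 CPM only through CMP, with 41.8, 49.3 and 24.9 CPM in GMP. Neither the rule nor the median over them could therefore point to GMP. Klf13 fell to 0.92 and 0.89 with TMM and median-of-ratios factors and no longer passed. Those factors shifted this contrast by -0.13 and -0.16, and of all genes called 57.9% were higher in CMP with library totals and 46.1% and 43.5% with them. Among members under 50 CPM, Klf1 (3.46 [3.10, 3.82]) and Klf10 (1.57 [1.41, 1.73]) had the higher level in CMP and Klf4 in GMP (-0.49 [-0.63, -0.36]). The median was 1.57 over the 7 members, 1.92 over the 3 with 50 CPM and 0.01 over all genes with 50 CPM.

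Between CMP and MEP the family divided. Klf2 (log2 ratio 5.13 [4.97, 5.29]) and Klf6 (3.29 [3.21, 3.37]) were higher in CMP, where 11.3% of 3104 genes were. Klf1 (-5.10 [-5.26, -4.95]) and Klf3 (-3.00 [-3.19, -2.82]) were higher in MEP, where 10.5% of genes were. Klf2 and Klf6 reached 50 CPM only in CMP, and Klf1 and Klf3 only in MEP, so each could be counted on that side only. Klf4, at 21.3 CPM too low to be counted, had a ratio of 4.26 [3.94, 4.60]. Klf13 had 50 CPM in both libraries and did not pass (-0.16 [-0.25, -0.07]). Here TMM and median-of-ratios factors shifted the ratios by -0.12 and -0.14 without changing a member's call, while the share of called genes higher in CMP went from 51.8% to 42.0% and 40.5%. The median was 1.42 over the 7 members, 2 of them below 50 CPM in both libraries. It was -0.16 over the other 5 and -0.18 over all genes with 50 CPM.

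Between GMP and MEP, Klf1 (log2 ratio -8.56 [-8.89, -8.25]), Klf3 (-2.95 [-3.06, -2.84]) and Klf13 (-1.21 [-1.29, -1.13]) were higher in MEP, all 3 members with 50 CPM in either library, where 12.1% of 3066 genes were. No member was higher in GMP (12.2% of genes). Those 3 reached 50 CPM only through MEP, with 1.12, 9.71 and 24.9 CPM in GMP. Neither the rule nor the median over them could therefore point to GMP. Klf6 had a ratio of 1.19 [1.11, 1.27] at 49.3 CPM in GMP, just under the minimum, and passed it with TMM and with median-of-ratios factors. Klf2 (3.20 [3.05, 3.36]) and Klf4 (4.76 [4.45, 5.08]) had 41.8 and 29.96 CPM in GMP and were not counted. Klf10 did not differ beyond counting error (-0.15 [-0.31, 0.01]). The median was -0.15 over the 7 members, -2.95 over the 3 with 50 CPM and -0.21 over all genes with 50 CPM. The contrasts share libraries, so their values are not independent of one another.

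Shares of cells with at least 1 UMI were taken after doublets were removed and every cell was thinned to 2000 UMIs, which left out 36 shallower CMP cells. Klf1 was seen in 52.8% [51.5, 54.1] of MEP cells, 3.42% [2.85, 4.07] of CMP cells, 0.605% [0.462, 0.777] of LSK cells and 0.160% [0.0826, 0.279] of GMP cells. Unthinned, the shares were 92.1%, 6.49%, 1.66% and 0.839%. Klf2 was seen in 39.1%, 24.2%, 7.45% and 1.61% of cells, from LSK through CMP and GMP to MEP, and unthinned in 64.4%, 49.9%, 20.5% and 3.90%. Klf6 was seen in 48.7%, 31.9%, 8.83% and 5.53% (unthinned 73.9%, 58.3%, 27.5% and 16.6%). Klf3 was seen in 12.9% of MEP and 6.34% of LSK cells and in 1.85 to 1.93% of the others. For Klf4 the shares were 9.62% in LSK, 4.15% in CMP and 5.52% in GMP, with 0.318% in MEP. Klf10 ranged from 1.504% in GMP to 6.57% in LSK. Klf13 was seen in 11.2% of CMP cells, 10.5% of LSK and of MEP cells and 4.55% of GMP cells, so CMP came first in shares where MEP came first in CPM, although the intervals of these 3 shares overlapped. Free RNA can give single UMIs in cells that do not express a gene, and its part in the lowest shares, such as those of Klf1 in GMP and of Klf4 in MEP, was not tested.

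A sum over a library does not separate a change in the make-up of cells from a change in RNA per cell, so the cells were clustered together, with Klf and Sp genes left out of the clustering genes. Of 18 clusters 17 had 50 cells or more, and most were made of 1 library. They were named from marker lists without Klf1 and Klf4. LSK held HSC/multipotent-like (0 and 1) and lymphoid-primed-like clusters (4 and 8, the latter led by cell cycle genes with 316 CPM of Mki67). GMP held monocyte-like clusters (2 and 3) and the unnamed clusters 10, led by Wfdc21 and Cebpe, and 11, led by Prg2 and Prg3. MEP held erythroid-like clusters (5, 7, 9 and 14), and a megakaryocyte-like cluster (15) had cells of LSK, CMP and MEP. CMP held the unnamed clusters 6 (Cxcl2, Ccl4, Ccl3), 12 (Id3, Nfkbia) and 16 (Batf3, Ifi205, Cd209a). Cluster 16 scored highest for the dendritic marker list, with Cd74, H2-Aa and Clec9a among the markers passed, but did not meet the rule for a name. Cluster 13 scored as basophil/mast-like, but its 606 CMP cells had 401 CPM of Car1, 94.2 of Gata1, 141 of Ms4a2 and 2.10 of Prss34, while its 214 GMP cells had 3925 of Prss34 and 6.24 of Car1, so it is called by number.

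**Figure D2:**
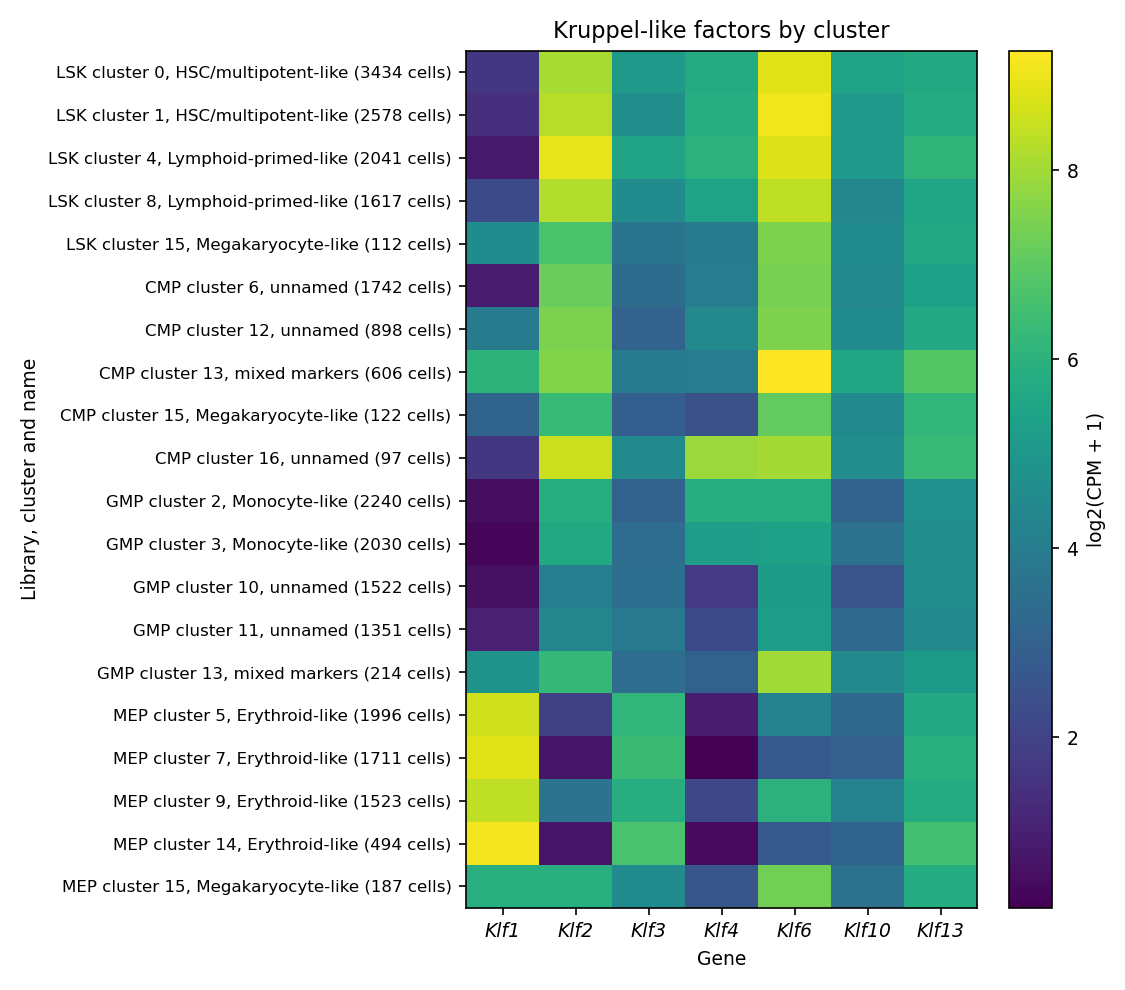
Level of each gene, as log2(CPM + 1) by colour, in every cluster with 50 or more cells of a library; rows are library and cluster with the number of cells, and columns are genes. Klf1 is high in the MEP erythroid-like rows (338 to 556 CPM), Klf4 in CMP cluster 16 (236 CPM) and Klf6 in CMP cluster 13 (613 CPM).

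Within MEP, Klf1 and Klf3 stood in the same order over the erythroid-like clusters. Klf1 had 338 CPM [327, 349] in cluster 9, 388 [380, 395] in cluster 5, 461 [453, 469] in cluster 7 and 556 [539, 572] in cluster 14, which was led by the globin genes Hbb-bs and Hba-a1. Klf3 had 55.9 [51.7, 60.4], 71.1 [67.9, 74.4], 82.7 [79.4, 86.2] and 101 [93.9, 108] CPM in the same clusters. In both genes the intervals of the 4 clusters did not overlap. Klf13 had 49.8 to 57.6 CPM in clusters 5, 7 and 9 and 90.5 [84.1, 97.4] in cluster 14. Klf6 ran the other way, with 64.0 CPM [59.5, 68.8] in cluster 9, 17.1 in cluster 5 and 5.504 and 5.480 in clusters 7 and 14. Klf2 likewise had 11.5 CPM [9.63, 13.7] in cluster 9, 2.75 in cluster 5 and 0.647 and 0.623 in clusters 7 and 14. Depth and an immediate early gene moved with these values: cluster 9 had a median of 6919 UMIs and 347 CPM of Fos, and cluster 7 had 16807 UMIs and 17.8 CPM of Fos. Their part in the differences was not tested.

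The 187 megakaryocyte-like cells of MEP had 58.6 CPM [44.4, 76.0] of Klf1 and 22.6 [14.2, 34.3] of Klf3, both below every erythroid-like cluster. Klf2 and Klf6, at 57.6 [43.5, 74.8] and 158 [134, 186] CPM, were above every erythroid-like cluster of the same library. Gata1 had 63.8 CPM there and 122 to 158 CPM in the erythroid-like clusters.

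**Figure D3:**
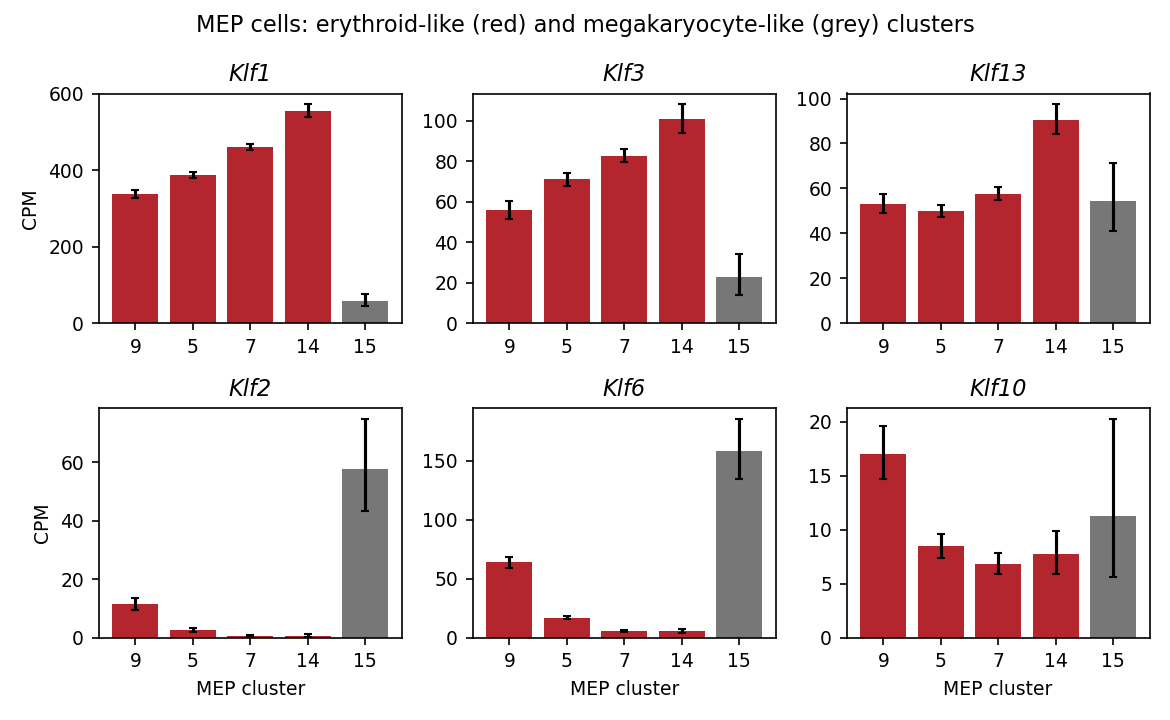
Level in CPM of 6 members in the erythroid-like clusters 9, 5, 7 and 14 (red) and the megakaryocyte-like cluster 15 (grey) of MEP, with exact 95% Poisson intervals; the vertical axes differ. Klf1 goes from 338 to 556 and Klf3 from 55.9 to 101 CPM over clusters 9, 5, 7 and 14, while Klf2 and Klf6 are highest in cluster 15.

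Among clusters with 50 or more CMP cells, Klf1 was highest in cluster 13, at 65.6 CPM [55.7, 76.7] from 156 UMIs. Cluster 12 had 14.8 CPM [12.3, 17.7] from 124 UMIs. In cluster 6, the cluster with the most CMP cells, Klf1 had 0.880 [0.439, 1.57]. In this clustering cluster 13 had the highest Klf6 (613 CPM [582, 646]), as well as the highest Klf13 (117 [104, 132]) and Klf10 (47.1 [38.8, 56.7]), although the Klf13 interval overlapped that of CMP cluster 16 (80.7 [56.8, 111]) and the Klf10 interval that of LSK cluster 0 (41.5 [38.5, 44.7]). Its CMP cells had 1189 CPM of Fos, against 643 and 963 in clusters 6 and 12. The Klf6 order depended on the clustering. At a resolution of 2 the CMP cells scored as basophil/mast-like, then 940, had 470 CPM of Klf6, below the 601 of the LSK HSC/multipotent-like and the 683 of 103 LSK dendritic-like cells. The GMP cells of cluster 13 had 27.6 CPM [18.8, 39.2] of Klf1, while the other GMP clusters had 0.242 to 1.06. The median depth of cluster 13 was 3836 UMIs.

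Klf4 followed other cells. In GMP it had 57.0 CPM [53.9, 60.2] and 37.7 [34.8, 40.8] in the monocyte-like clusters 2 and 3, and 2.28 [1.58, 3.18] and 3.75 [2.67, 5.13] in clusters 10 and 11. Irf8, a transcription factor of monocyte and dendritic development, had 833 and 730 CPM in the first pair and 61.1 and 68.2 in the second, and Cebpe, a factor of granulocyte development, 28.7 and 44.0 against 284 and 353. Klf2 differed in the same direction, with 56.7 and 51.5 against 16.1 and 19.4 CPM, and Klf6 less so, with 56.3 and 40.9 against 34.0 and 36.5. In CMP the 97 cells of cluster 16 had 236 CPM [193, 284] of Klf4 and 373 [319, 433] of Klf2, where clusters 6, 12 and 13 had 15.1 to 20.9 of Klf4 and 144 to 192 of Klf2. Those 97 cells had 3696 CPM of Irf8 and 10808 of Cd74, a gene of the dendritic marker list.

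Within LSK, Klf2 was highest in the lymphoid-primed-like cluster 4 (486 CPM [474, 498]) and lowest among the clusters of over 1000 cells in the HSC/multipotent-like cluster 0 (267 [260, 275]). Klf3 had 44.5 CPM [40.8, 48.4] in cluster 4 and 23.0 to 33.1 in clusters 0, 1 and 8. Klf6 was highest in cluster 1 (534 [523, 545]) and had 339 [330, 348] in the cycling cluster 8. Klf4 had 42.3 to 64.1 CPM and Klf13 44.7 to 68.7 CPM in these 4 clusters, and Klf10 20.2 to 41.5 CPM with its highest value in cluster 0. Among named clusters with 50 or more LSK cells, Klf1 went from 0.810 CPM in cluster 4 to 23.6 in the 112 megakaryocyte-like cells. These 112 cells had 102 CPM of Klf2. LSK cells in clusters with fewer, such as 16 in the erythroid-like cluster 9 and 31 in cluster 13, together held a further part of the Klf1 UMIs. No level is given for them.

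The genes with the most similar pattern were taken by Pearson's r of log2(CPM + 1) over the 17 clusters, among 4084 genes with 50 CPM in a cluster. The clusters share libraries and depth, so r is a description. Klf1 was most like Tspo2 (r = 0.99), Epdr1 (0.99) and the carbonic anhydrase gene Car1 (0.99). Klf2 was most like Zfp36 (0.99), which encodes an mRNA-destabilising protein, then Git2 (0.98) and Adrbk1 (0.98). Klf6 was most like Pnrc1 (0.98), Fos (0.98) and Dusp1 (0.98). Klf3 was nearest to the aminoacyl-tRNA synthetase genes Sars (0.95) and Qars (0.94) and to D17Wsu92e (0.94). Klf4 was nearest to Fgd2 (0.96), Ptpn6 (0.96) and Irf5 (0.95), Klf10 to Srsf5 (0.97), Avl9 (0.96) and Ppp1r15a (0.94), and Klf13 to Top2b (0.92), Rchy1 (0.92) and Whsc1l1 (0.90). Within the family the highest r were those of Klf2 with Klf6 (0.96), Klf2 with Klf4 (0.91) and Klf6 with Klf10 (0.90). Klf1 had r = 0.71 with Klf3, -0.67 with Klf2 and 0.96 with Gata1.

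Pairs of members were also counted in the same cells, at 2000 UMIs, where each was seen in at least 1% of cells. In LSK, Klf2 and Klf6 were both seen in 2343 of 9925 cells (odds ratio 2.17), and Klf4 went with Klf6 (1.99) and with Klf2 (1.78). The other LSK pairs had odds ratios of 0.98 to 1.33. Klf2 and Klf6 had an odds ratio of 1.76 in CMP and 2.26 in GMP. Their odds ratio in MEP was 7.59, from 28 cells with both where independence gives 5.31. In CMP the highest odds ratio was that of Klf1 with Klf13 (3.12, from 33 cells with both), followed by Klf2 with Klf4 (2.15) and Klf1 with Klf6 (1.92). At 4000 UMIs Klf1 with Klf13 had 2.52 and Klf1 with Klf3 the highest value, 3.10 from 11 cells with both. In MEP Klf1 had an odds ratio of 1.24 with Klf3, 0.51 with Klf2 and 0.81 with Klf6. Cells of one library are not replicates, and mixed cell types and capture differences also move such ratios.

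Other genes in cells with and without a member were examined after the values above had been seen. Of the 122 CMP cells with a Klf1 UMI, 51.6% [42.4, 60.8] also had Car1 and 19.7% [13.03, 27.8] had Gata1, where CMP cells without Klf1 had 6.36% and 4.41%. Mcpt8, a basophil protease gene, was seen in 1.64% [0.199, 5.80] of them and in 7.98% [7.10, 8.94] of the rest. The other mast cell and basophil genes examined had the higher share in Klf1-positive cells, with overlapping intervals. Ms4a2 was seen in 8.20% [4.001, 14.6] of Klf1-positive and 3.72% [3.11, 4.40] of the other cells, and Cpa3 in 29.5% [21.6, 38.4] and 21.5% [20.2, 22.9]. Of the 415 GMP cells with a Klf4 UMI, 82.7% [78.7, 86.2] had Irf8 and 5.78% [3.74, 8.48] had Cebpe, where cells without it had 44.9% and 22.3%. Of the 148 CMP cells with Klf4, 22.3% [15.9, 29.9] had the MHC class II invariant chain gene Cd74, where the rest had 3.66%. In LSK, Klf4-positive and Klf4-negative cells had Irf8 at 6.49% [5.01, 8.25] and 6.56% [6.05, 7.09].

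Fos, an immediate early gene induced within minutes of a stimulus, fell in the same order as Klf2 and Klf6, from 1957 CPM in LSK to 798 (CMP), 204 (GMP) and 99.2 (MEP). At 2000 UMIs it was seen in 80.2%, 55.0%, 26.0% and 17.3% of cells. Klf2, Klf6 and Klf4 were higher in Fos-positive cells of every library. Klf2 had 381 CPM in Fos-positive and 94.6 in Fos-negative LSK cells, a log2 ratio of 2.01 [1.93, 2.09], and ratios of 0.88 in CMP, 1.75 in GMP and 3.68 in MEP. Klf6 had 511 and 153 CPM in LSK (1.74 [1.68, 1.81]) and ratios of 1.04, 1.44 and 2.87 in the others. Klf4 had ratios of 1.58, 1.24, 0.56 and 3.13 in LSK, CMP, GMP and MEP. Klf3 did not share this, with ratios of -0.13 [-0.29, 0.03], 0.11 [-0.27, 0.48], -0.25 [-0.54, 0.02] and -0.22 [-0.35, -0.10]. Klf10 was higher in Fos-positive cells of CMP (0.85), GMP (0.54) and MEP (0.71) but not of LSK (-0.14 [-0.29, 0.02]), and Klf13 lay between -0.18 and 0.44. Klf1 had ratios of -0.27 in MEP, 0.58 in CMP and 1.37 in GMP. Its ratio in LSK was -1.32 at 2000 UMIs, but -0.21 [-0.74, 0.37] at 4000. Median depth was similar in both sets in LSK (5764 and 5886.5 UMIs) and lower in the Fos-positive cells of MEP (6525 and 13437).

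The split was repeated inside each cluster of 300 or more cells of a library, a comparison added after the library values were known. Taking clusters with 20 or more UMIs of the gene, the interval of the ratio lay above 0 in 13 of 13 for Klf2, 14 of 15 for Klf6 and 12 of 13 for Klf4, with medians of 1.69, 1.34 and 1.52. For Klf10 and Klf13 it lay above 0 in 4 of 15 each, and for Klf3 in 0 of 15, with medians of 0.40, 0.01 and -0.09. It lay below 0 in 1 of 15 for Klf13 and in 1 of 15 for Klf3. For Klf1 it lay above 0 in 1 of 9 and below 0 in 1 of 9. The Klf10 ratio in MEP cluster 14, 0.74, was set by the floor of 3 counts, from 1 UMI in 14 Fos-positive cells. Its observed levels ran the other way, 4.34 CPM with and 7.82 without Fos, and the ratio of 0.74 is part of the Klf10 median. The Klf6 ratio of that cluster also used the floor, from 2 UMIs. Fos itself could enter the clustering, and shared capture or handling of cells was not tested.

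**Figure D4:**
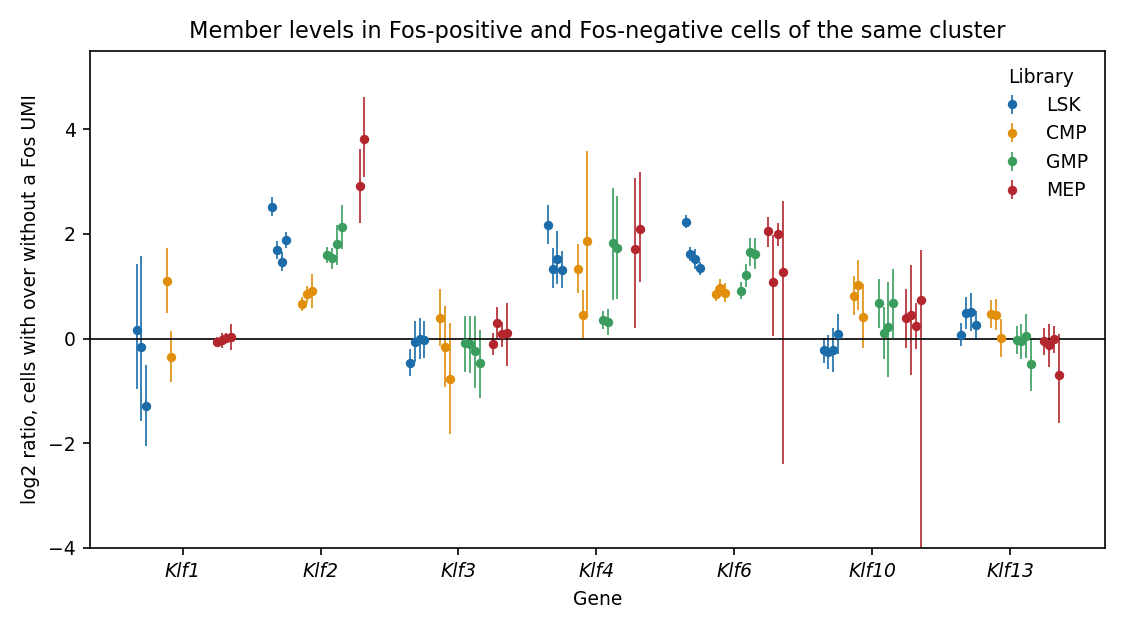
Log2 ratio of the level of each gene in cells with over cells without a Fos UMI (at 2000 UMIs per cell) within single clusters of at least 300 cells and 20 UMIs of the gene; colours are libraries, bars are exact 95% intervals, and the line marks equal levels (1 Klf10 interval runs below the axis). The Klf2, Klf4 and Klf6 points lie above the line, and the Klf1, Klf3 and Klf13 points lie on both sides of it.

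Cells with and without a UMI of the proliferation gene Mki67 were compared in the same way. In MEP, Klf6 (-0.80 [-0.98, -0.63]), Klf2 (-0.85 [-1.26, -0.47]) and Klf4 (-1.71 [-2.78, -0.79], from 86 UMIs) were lower in Mki67-positive cells, while Klf1 (0.11 [0.08, 0.14]) and Klf3 (0.23 [0.15, 0.31]) were slightly higher. Fos was lower in the same cells by a ratio of -0.84. In LSK, Klf10 (-0.67 [-0.89, -0.47]), Klf6 (-0.38 [-0.43, -0.33]), Klf13 (-0.31), Klf2 (-0.22) and Klf3 (-0.22) were lower in Mki67-positive cells and Klf1 was higher (0.64 [0.20, 1.06]), as in CMP (0.59 [0.19, 0.97]) and in GMP (1.20 [0.46, 1.91], from 76 UMIs). Klf4 was higher in CMP (0.51 [0.20, 0.80]) and in GMP (0.46 [0.31, 0.61]). Klf2 and Klf6 were higher in GMP, each by a ratio of 0.25, and Klf10 was lower in MEP (-0.41). The intervals of the other 10 pairs of gene and library included 0 at 2000 UMIs. At 4000 UMIs some of them did not. Klf4 was then lower in Mki67-positive LSK cells (-0.34 [-0.47, -0.22]) and Klf3 in those of GMP (-0.32 [-0.58, -0.07]). Klf2 was higher in CMP (0.25 [0.15, 0.35]), and Klf13 in CMP (0.24 [0.05, 0.42]), GMP (0.15 [0.01, 0.30]) and MEP (0.10 [0.02, 0.19]). The intervals of Klf3, Klf6 and Klf10 in CMP and of Klf10 in GMP included 0 at both depths. In the split at 2000 UMIs, Mki67-positive LSK and MEP cells were deeper, at 9227 and 14054.5 UMIs against 5595 and 11447.5.

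The 10 other Klf genes listed and the Sp genes, whose proteins can bind the same GC-rich elements, stayed under 50 CPM in all libraries, so the 2-fold rule could count none of them. In the order LSK, CMP, GMP, MEP, Klf9 had 30.4, 29.0, 14.5 and 38.6 CPM, Klf16 had 12.5, 12.1, 5.33 and 14.6, Klf11 had 9.10, 13.3, 2.15 and 3.63, and Klf7 had 12.9, 11.3, 6.73 and 5.52. Klf14 and Klf17 had no UMI, where the floor of 3 counts equals 0.0374 to 0.111 CPM. Sp1 and Sp3 were at 12.6 to 17.3 and 19.7 to 29.1 CPM. Of 11 cofactor genes 4 or 5 had 50 CPM in a contrast and none of these passed, with either scaling too. Ctbp1, which encodes a corepressor that KLF3 binds, had 146, 123, 105 and 195 CPM.

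Red cell genes known as KLF1 targets were 11 of 12 by symbol in the matrices. 6 of the 11 had 50 CPM in these contrasts, among them Hbb-bt, Hbb-bs, Ermap, Icam4 and Bcl11a. All 6 were higher in MEP than in CMP and in GMP, where 10.5% and 12.1% of genes with 50 CPM were. Apart from Bcl11a against CMP, each reached 50 CPM only in MEP in these contrasts, so it could be counted only there. Taken in the same order of libraries, Ermap stood at 0.506, 0.706, 0.123 and 261 CPM. Alas2, Slc4a1, Epb42 and Dmtn, genes of heme synthesis and the red cell membrane, reached 0.212 to 3.75 CPM in MEP. Bcl11a, a repressor of fetal globin, did not follow Klf1 in LSK, with 144 CPM there against 59.5 in CMP, 27.6 in GMP and 164 in MEP, and was counted as higher in LSK than in CMP (log2 ratio 1.27) and in CMP than in GMP (1.11). Neither held with TMM or median-of-ratios factors, which gave 0.96 and 0.90 for the first and 0.98 and 0.95 for the second. The level of Hbb-bt was 42.1 CPM in LSK and 6.17 in CMP, but its reads can be divided with other globin copies by the counting.

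Among genes known as KLF2 targets, Cdkn1a, which encodes the cell cycle inhibitor p21, had 30.3, 68.1, 12.5 and 3.61 CPM in that order of libraries and was higher in CMP than in each of the other libraries. S1pr1, the sphingosine phosphate receptor gene, had 10.7, 3.75, 0.218 and 1.08 CPM, too low to be counted.

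Of 16 immediate early genes, 12 had 50 CPM in LSK or CMP. Of these, 4 (Fos, Fosb, Jund and Dusp1) were higher in LSK and 1 (Btg2) in CMP, where 6.12% and 2.72% of genes with 50 CPM were. With TMM or median-of-ratios factors, 2 (Fosb and Dusp1) were higher in LSK and 2 (Ier2 and Btg2) in CMP, and Fos, at 0.98 and 0.92, did not pass. The scalings were applied to the lists after their values had been seen. Of the list, 11 of 12 with 50 CPM were higher in CMP than in GMP (4.03% of genes with 50 CPM). Between CMP and MEP, 12 of 12 were higher in CMP (11.3%). Between GMP and MEP, 3 of 6 (Fos, Jun and Ier2) were higher in GMP (12.2%). These 3 counts were the same with either scaling. With library totals, Fosb, Egr1, Ier3, Ier5, Zfp36 and Btg2 reached 50 CPM in CMP but in neither GMP nor MEP. Dusp1 reached it in CMP but not in MEP. In those contrasts these genes could be counted only as higher in CMP. Of 16 partner transcription factors, 13 had 50 CPM in CMP or MEP and 12 in GMP or MEP. Gata1, Zfpm1, Tal1, Ldb1 and Gfi1b were higher in MEP than in CMP and in GMP (10.5% and 12.1% of genes with 50 CPM). Spi1, Irf8, Cebpa, Cebpb and Mef2c were higher in CMP and in GMP than in MEP (11.3% and 12.2%). In these contrasts with MEP none of the genes just named reached 50 CPM on its lower side, so each could be counted on 1 side only. Lmo2 and Ldb1 were higher in LSK than in CMP, and Irf8 in CMP. With either other scaling Lmo2 and Ldb1 did not pass, and Cebpa was also higher in CMP. Gata2 and Mef2c were higher in CMP than in GMP, and Cebpb in GMP (4.03% and 2.92%). Gata1 followed the order of Klf1, at 5.11 CPM (LSK), 18.5 (CMP), 1.55 (GMP) and 125 (MEP).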

How the data were processed

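The matrices deposited by the authors give, for every gene and barcode, the raw UMI count, made with the 10x Genomics 3' kit and an Illumina HiSeq, per the labels' protocols. Build mm10 and the tools Seurat 2.3.0, Cell Ranger 2.0.0 and CASAVA 1.8.2 are named in the submitters' processing notes, and further steps are not stated there. The 2 CMP files were identical and counted once. The LSK matrix held 737280 barcodes, and those with 2110 or more UMIs (the UMI count at the stated rank of 10882 cells) were taken. Cells needed 500 genes and a mitochondrial share of no more than 10%. Gene sums were divided by library totals (CPM). Sums have exact Poisson intervals, ratios exact conditional binomial and shares exact Clopper-Pearson intervals. Ratios used a floor of 3 counts. Doublet scores against simulated pairs, highest 0.8% per 1000 cells removed, left 9925 LSK, 3603 CMP, 7512 GMP and 5968 MEP cells for clustering and cell shares; library sums kept doublets. Clustering (scanpy 1.11.5, leidenalg 0.10.2) used 2000 variable genes, 30 principal components, 15 neighbours, Leiden resolution 1 and seed 0. TMM factors came from edgeR 4.0.16. On simulated counts with 200 of 27998 genes changed 3-fold, 100% were recovered with 0 other calls in each of the 4 main contrasts, and intervals covered 95.2 to 95.7% of true ratios; this checks counting noise only.

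Named genes were all 7 members, up to 4 genes of each list past the rule or with the highest CPM, and the 3 genes most alike per member; further list genes, cluster leaders and partner genes were named after their values were seen. Some genes that this rule takes are left out of the text. The members and lists were chosen with earlier results of these data known. The lists were other Klf genes, Sp genes, cofactors and ubiquitin ligases, KLF1 targets, KLF2 targets, immediate early genes and partner transcription factors. Alternatives tried were 2 scalings, a minimum of 10 CPM, no filter on cells, doublets removed or kept, LSK barcodes of 4000 or more UMIs, thinning to 4000 UMIs, other clustering settings and other likeness measures.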

Additional observations from a re-analysis of the deposited data

Results flagged for a closer look

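All 7 genes were also counted in LSK barcodes outside the cells. The LSK matrix held 426145 barcodes with under 100 UMIs, with 1176057 UMIs together, which the comparisons do not use. Klf1 had 4.25 CPM [1.38, 9.92] there, from 5 UMIs, and 3.95 in LSK cells. Klf2 had 407 CPM [372, 445], above the 330 of the cells. Klf6 had 384 [350, 421], below the 445 of the cells. Klf3 had 28.9, Klf4 39.96, Klf10 28.1 and Klf13 49.3 CPM, and the ratio of cells to these barcodes ran from 0.81 for Klf2 to 1.32 for Klf4. The values were flagged because the genes had UMIs in barcodes not taken as cells. Such barcodes were not analysed here for CMP, GMP and MEP.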

How the results depend on the processing

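No paired analysis was possible because each gate was 1 library with no replicate number to share. With TMM factors, members higher in LSK than in CMP went from 3 to 0, all genes higher in LSK from 187 to 80 and in CMP from 83 to 236, and members higher in GMP than in MEP from 0 to 1. With median-of-ratios factors the same counts were 0, 72, 282 and 1. A minimum of 10 CPM, which tests more genes, gave 963 and 160 genes higher in LSK and in CMP. Klf2, Klf3, Klf4 and Klf6 were then higher in LSK, and 1 member, Klf1, in CMP. The same minimum gave 370 and 208 genes higher in CMP and in GMP, with 5 members in CMP and none in GMP. Between CMP and MEP it gave 1060 and 791, with 4 members in CMP, and Klf1 and Klf3 in MEP. For GMP and MEP it gave 993 and 916 genes, with 3 members in GMP, and Klf1, Klf3 and Klf13 in MEP. Of all genes called with this minimum, 85.8, 64.0, 57.3 and 52.0% were higher in the first library of these contrasts. Shares of all genes tested with it are not given. Counts changed by less than 1.5 times without the filter on cells, without doublets and with the higher LSK minimum. Of the members' ratios between libraries, Klf13 between LSK and CMP changed sign, under both scalings. With other measures of likeness 11 of 14 sets of 3 genes differed from those named. In co-detection at 4000 UMIs, 10 of 66 odds ratios moved beyond their intervals; Klf4 with Klf6 in GMP went from 1.08 to 1.65. Levels under 50 CPM rest on few UMIs per cell, and 1 library per gate limits every comparison.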

Other observations

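The megakaryocyte-like cluster was the cluster with at least 100 cells of 3 libraries, so the members could be set side by side across gates in it. Klf1 had 23.6 CPM [14.8, 35.7] in its 112 LSK cells, 7.67 [3.08, 15.8] in its 122 CMP cells and 58.6 [44.4, 76.0] in its 187 MEP cells. Klf2 had 102 [82.4, 125], 80.0 [62.7, 101] and 57.6 [43.5, 74.8] CPM, and Klf6 had 179 [153, 208], 136 [113, 162] and 158 [134, 186]. The LSK and MEP values of Klf2 and of Klf6 thus differed less in these cells than in the whole libraries (330 and 4.53 CPM of Klf2, 445 and 21.6 of Klf6). Klf13 had 50.4, 72.3 and 54.5 CPM. The difference between the cluster and the libraries has no test.

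Klf1 in LSK lay in few cells: 60 of 9925 had a UMI at 2000 UMIs. Of these, 26.7% [16.1, 39.7] also had Car1 and 11.7% [4.82, 22.6] had Gata1, where the other LSK cells had 0.851% and 0.730%.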
